A study of Homo sapiens with 6 samples.

Results

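Imprinted genes are expressed mainly from the copy inherited from 1 parent, and the measurements here describe 35 of them, grouped by chromosomal cluster and by the copy that is expressed in human tissue. The genes were taken by name from a list drawn up with earlier results of these data known. Of the 35, 34 had at least 1 probe on the array (RTL1 had none) and 25 were measured, which means that a probe was detected on all 3 arrays of JJ012 or on all 3 arrays of C28. These 34 genes had 62 probes, of which 32 were measured. A probe counted as detected on an array when its detection value, read as 1 minus the detection p, was above 0.99. SLC22A18 is listed on the platform under the symbol SLC67A1 and was matched through its synonym.

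Total RNA of 2 human cell lines was labelled and hybridized to Illumina expression arrays. JJ012, a chondrosarcoma line, is the test group with 3 arrays, and C28, a line of chondrocytes, is the control group with 3 arrays. Cells of both lines were plated at 5000000 per dish and kept for 24 h before lysis, with no other treatment, knockdown or transgene named. Each group is a single line, so a difference between tumour and control cells cannot be told apart from one between the donors or the culture histories of the lines. Whether the 3 arrays per line hold separate cultures is not stated, so p-values cover only the array-to-array spread, possibly technical in origin.

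Imprinting is set in the germ line, where DNA methylation at imprinting control regions marks the copy from the mother or the father. The control region of a cluster then acts on several genes at once, often through a long noncoding RNA or through the insulator protein CTCF, so genes of 1 cluster can be expressed from opposite copies. Many imprinted genes act on fetal growth. Several that restrain or promote growth are silenced, lost or expressed from both copies in tumours. The array reads the total RNA of a gene, so which parental copy it came from was not measured, and the expressed copy given below is background. Copies are called maternal or paternal where human tissues largely share the pattern, and variable where it depends on isoform or tissue or is disputed.

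Intensities were background-corrected and quantile-normalized, and levels below are log2 values of that signal. For a gene with several measured probes the brightest stood for it. Every difference is log2 of JJ012 minus C28 from limma over 11515 genes, with two-sided p-values adjusted by Benjamini-Hochberg over all of them, and calls required an adjusted p below 0.05 together with a difference of 2-fold or more. Where no array of a line detected a probe, the size is given as a bound ("at least N-fold"), set against the detection floor of each array. The fitted log2 fold change printed beside it, on which the call rests, then uses signal not above background and is no measured size. Where only some arrays of a line detected a probe, no bound is set over all arrays, and the fitted size rests partly on such signal. The bounds of the called genes H19 (1.62), CDKN1C (1.58) and L3MBTL1 (1.79) are under 2-fold. So are those of several other genes named below, among them IGF2 (1.11). The JJ012 arrays detected 17826 to 18378 probes and the C28 arrays 18922 to 19332 of 47231. For 79 C28-bright probes (mean log2 signal of 10 or more) that JJ012 replicate 2 did not detect, the median signal as a share of the C28 mean was 11% on JJ012 replicate 1, 0.751% on replicate 2 and 2.62% on replicate 3. Of the markers of each cell type, 2 of 15 chondrocyte markers were measured, namely SOX9, which was not called (log2 fold change −0.53), and MATN3, which was detected in C28 only. ACAN and COL2A1 were not among the measured markers. Fibroblast markers were measured for 7 of 7 genes, with 2 higher in JJ012 (DCN and LUM) and 5 lower. SNAP25 and SYP, 2 of 4 neuron markers, were detected on no JJ012 array and on every C28 array, and 1 of 4 markers each was measured for blood (CD14, lower), epithelium (EPCAM, lower) and endothelium (PECAM1, higher). The part of these differences in cell character in the values of the imprinted genes was not tested, and in bulk RNA fewer cells of a type and less RNA per cell cannot be told apart.

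Control regions and promoters of imprinted genes are often rich in CpG, the dinucleotide that DNA methylation marks. Promoter windows from RefSeq (build GRCh38.p14, 250 bases before to 50 after a start site) were found for 25 of the 35 genes, with 54 distinct windows in all, since SNRPN and SNURF share 1. The promoters below belong to the pair of genes at 15q11-q13 that went opposite ways and to the 2 noncoding RNAs that went opposite ways, and capitals mark CpG. The SNURF window, which is the promoter and control region shared with SNRPN, lies at chr15:24954737-24955036 on the plus strand and holds 18 CpG. MKRN3 lies in the same cluster, and its window at chr15:23565424-23565723 on the plus strand holds 15 CpG. The H19 window at chr11:2001217-2001516 on the minus strand holds 6 CpG, a count that 36.9% of all windows do not exceed. The first of 3 overlapping MEG3 windows, at chr14:100825858-100826157 on the plus strand, holds 19 CpG.
SNURF: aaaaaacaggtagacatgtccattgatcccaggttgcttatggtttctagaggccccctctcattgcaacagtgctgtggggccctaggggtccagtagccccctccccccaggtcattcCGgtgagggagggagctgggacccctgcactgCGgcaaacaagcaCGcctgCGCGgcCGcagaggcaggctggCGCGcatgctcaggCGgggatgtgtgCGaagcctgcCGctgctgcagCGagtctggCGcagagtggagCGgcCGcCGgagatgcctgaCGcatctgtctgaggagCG
MKRN3: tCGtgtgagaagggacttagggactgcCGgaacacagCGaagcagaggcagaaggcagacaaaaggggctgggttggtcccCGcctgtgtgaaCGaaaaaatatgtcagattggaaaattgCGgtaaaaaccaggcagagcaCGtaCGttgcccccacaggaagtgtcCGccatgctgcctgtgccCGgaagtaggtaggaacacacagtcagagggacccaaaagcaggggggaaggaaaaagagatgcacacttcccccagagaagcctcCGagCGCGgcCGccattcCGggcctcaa
H19: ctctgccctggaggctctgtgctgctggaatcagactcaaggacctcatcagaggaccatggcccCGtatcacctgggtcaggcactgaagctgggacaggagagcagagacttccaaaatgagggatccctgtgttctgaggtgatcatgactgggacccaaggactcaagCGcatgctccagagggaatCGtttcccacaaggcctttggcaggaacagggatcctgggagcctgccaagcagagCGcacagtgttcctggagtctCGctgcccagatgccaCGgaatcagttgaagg
MEG3: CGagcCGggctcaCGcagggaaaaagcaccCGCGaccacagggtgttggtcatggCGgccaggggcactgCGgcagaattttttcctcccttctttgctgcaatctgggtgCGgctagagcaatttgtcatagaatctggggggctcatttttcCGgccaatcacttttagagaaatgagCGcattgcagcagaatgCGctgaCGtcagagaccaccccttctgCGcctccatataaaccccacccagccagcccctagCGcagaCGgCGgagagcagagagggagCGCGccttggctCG
The windows of imprinted genes held a median of 20 CpG, against 14 over all 34943 distinct windows in the table. The motif TGCCGC, which in its methylated form is bound by ZFP57, a zinc finger protein that keeps imprints, was searched on both strands. It was found in 21 of the 54 windows (38.9%), against 16.7% of all windows, and in at least 1 window of 14 genes (56.0%), against 19.5% of all genes. The imprinted genes had more listed windows per gene in which to match (55 for 25 genes, against 35116 for 27305 genes). The motif also holds a CpG itself, and these windows were richer in CpG. Whether the motif was more frequent apart from this was not tested. SNURF had 2 matches, MEG3 1, and H19 and MKRN3 none. Methylation was not measured here, and a match describes only the letters of a window.

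Among the 25 measured imprinted genes, 3 were higher in JJ012 (H19, TSSC4 and MKRN3), 11 were lower (CDKN1C, MEG3, PEG3, PEG10, SGCE, MEST, PLAGL1, SNRPN, SNURF, L3MBTL1 and GNAS) and 11 were not called. Over all genes tested, 31.3% were called, 13.7% as higher and 17.6% as lower. The median log2 fold change of the measured imprinted genes was −0.49, against −0.04 over all genes. The values of JJ012 and C28 did not overlap in 20 of the 25, while the same held for 76.2% of all genes. Of the 25, 6 (CDKN1C, MEG3, PEG3, PEG10, MEST and L3MBTL1) were detected on no JJ012 array and on every C28 array, which was the case for 7.02% of all genes. H19 and MKRN3 were detected on every JJ012 array and on no C28 array. A gene that passed the filter through 1 line only had to differ, so these counts describe the genes and are no separate evidence. Over the 15 imprinted genes detected on all 6 arrays, 4 were called (TSSC4 higher and SNRPN, SNURF and GNAS lower), against 21.9% of all such genes, with a median of −0.18 and 0.02 over all such genes.

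**Figure D1:**
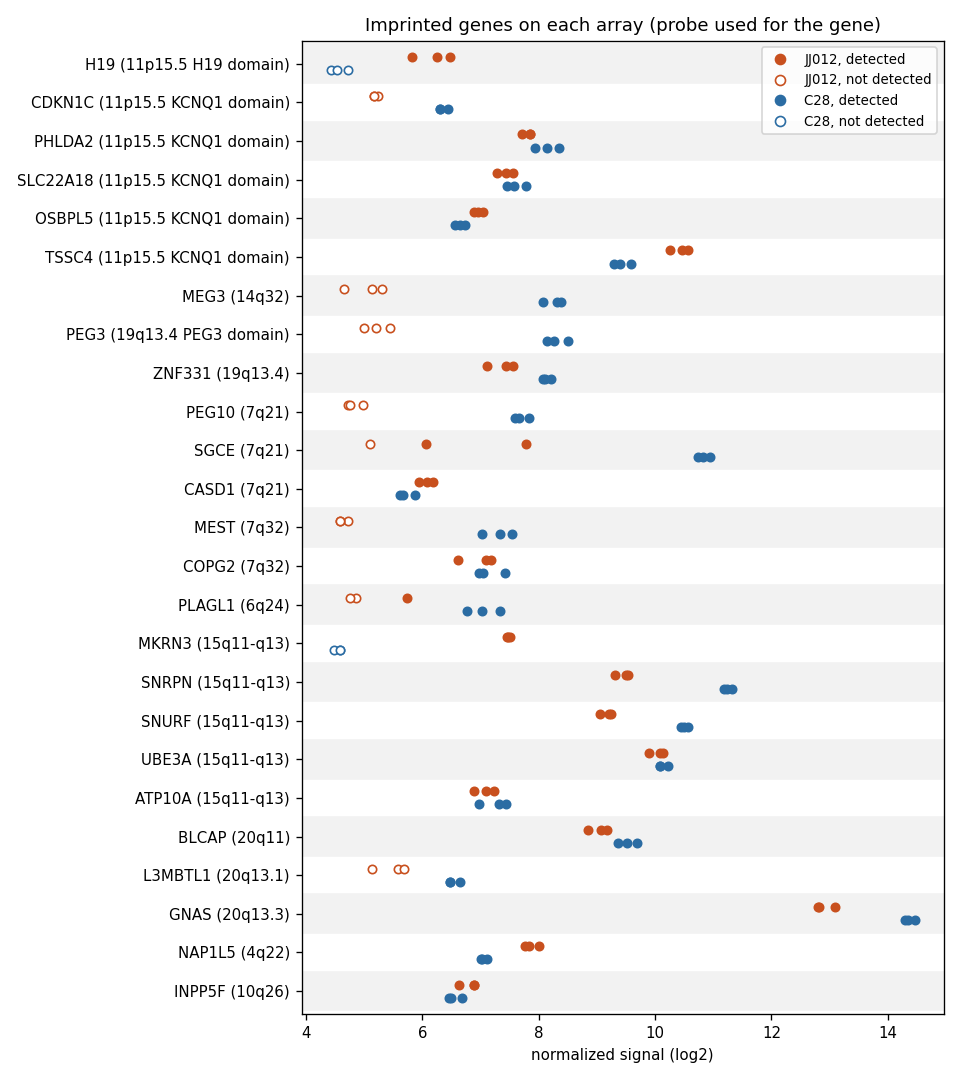
Normalized signal (log2, horizontal axis) of the probe used for each of the 25 measured imprinted genes, 1 point per array, JJ012 in orange above C28 in blue, with open points where the array did not detect the probe. MEG3, PEG3, PEG10 and MEST have open JJ012 points near 5 and filled C28 points between 7.03 and 8.5, while MKRN3 and H19 have filled JJ012 and open C28 points.

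The genes were also counted by expressed copy. Of 17 paternally expressed genes, 10 were measured, 8 were lower, 1 was higher (MKRN3) and NAP1L5 was not called, while 17.6% of all genes were lower. Of these 8, 6 (PEG3, PEG10, SGCE, MEST, PLAGL1 and L3MBTL1) were not detected on all JJ012 arrays and passed the filter through C28 alone. NAP1L5, SNRPN and SNURF were the 3 paternally expressed genes detected on all 6 arrays, and of these SNRPN and SNURF, which share a transcript, were lower. The median log2 fold change of the 10, −1.86 against −0.04 over all genes, is therefore a description only. All 5 maternally expressed genes were measured, and 1 was higher (H19), 2 were lower (CDKN1C and MEG3) and 2 were not called (PHLDA2 and SLC22A18), with a median of −0.34. Of 13 genes whose expressed copy is variable, 10 were measured, and 1 was higher (TSSC4), 1 was lower (GNAS) and 8 were not called, with a median of −0.13. With each undetected gene set at its bound, the median of the paternally expressed genes was −1.71. The difference between these groups of genes was not tested.

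**Figure D2:**
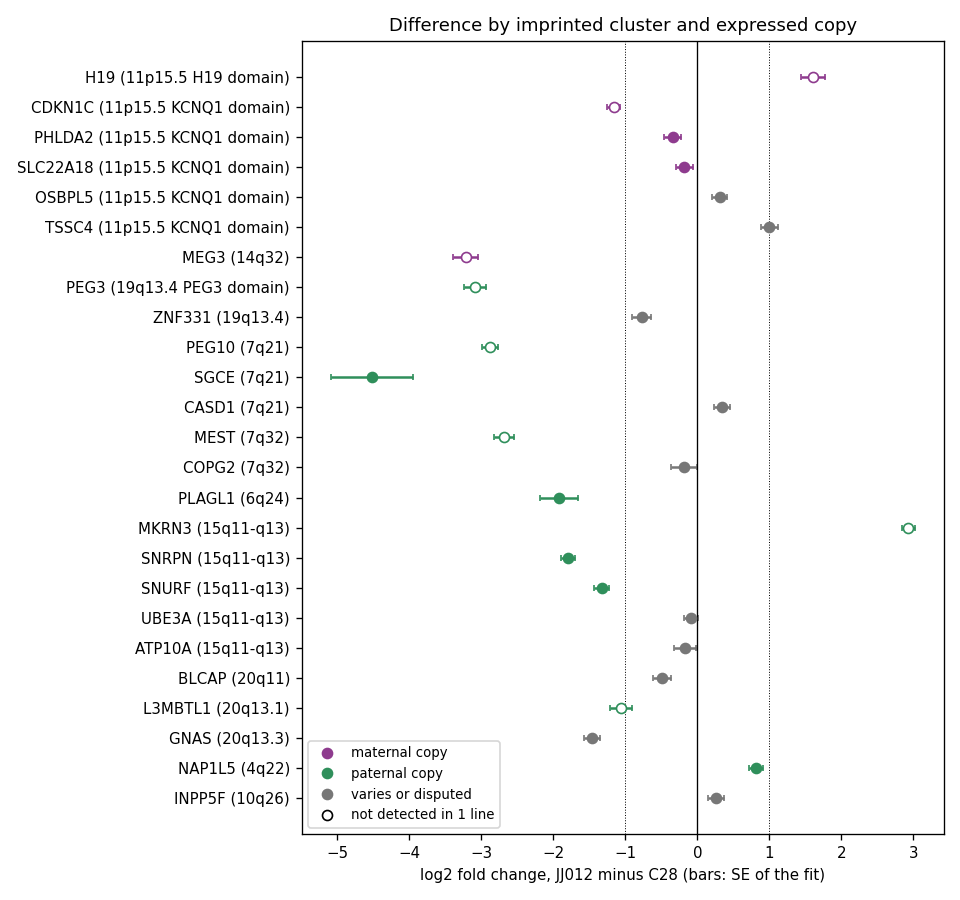
Log2 fold change (JJ012 minus C28, horizontal axis) of each measured imprinted gene by cluster, coloured by expressed copy, with bars for the standard error of the fit, dotted lines at a 2-fold difference and open circles for genes detected on no array of 1 line. Of the 10 green points (paternal copy), 8 lie left of −1, with SGCE farthest at −4.52, and MKRN3 lies at 2.93.

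At 11p15.5, H19 and the genes of the neighbouring KCNQ1 domain differed in both directions. H19, a maternally expressed noncoding RNA that shares a control region with IGF2, read 5.82, 6.47 and 6.25 in JJ012, against 4.43, 4.73 and 4.53 in C28. All JJ012 arrays detected it and no C28 array did, so it was at least 1.62-fold higher in JJ012 (log2 fold change 1.61, SE 0.17, adjusted p = 7.43e-05). In the KCNQ1 domain, CDKN1C, which encodes the cyclin-dependent kinase inhibitor p57, read 5.17, 5.23 and 5.17 in JJ012, against 6.44, 6.3 and 6.31 in C28. No JJ012 array detected it, and it was at least 1.58-fold lower there (log2 fold change −1.16, SE 0.09, adjusted p = 1.25e-05). TSSC4, a factor in assembly of the spliceosome, read 10.46, 10.25 and 10.56 in JJ012, against 9.58, 9.4 and 9.29 in C28. This gene was the nearest to the 2-fold threshold among the called ones (log2 fold change 1.0, SE 0.12, adjusted p = 0.000156) and fell below it in 9 of 17 alternative settings, among them leaving out C28 replicate 2 or 3 or JJ012 replicate 1 or 3, where the values were 0.93 to 1.0. With the authors' normalized values, H19 (0.89), CDKN1C (−0.56) and TSSC4 (0.94) all missed the 2-fold threshold.

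The other measured genes of the KCNQ1 domain were not called. PHLDA2, which restrains growth of the placenta in mice, averaged 7.81 ± 0.08 in JJ012 and 8.14 ± 0.21 in C28 (SD, n = 3 each), and its difference of −0.34 (SE 0.12) on the log2 scale missed the fold threshold. SLC22A18, a membrane transporter, averaged 7.42 ± 0.14 in JJ012 and 7.6 ± 0.16 in C28, and the arrays of the lines overlapped. OSBPL5, a lipid transfer protein, averaged 6.96 ± 0.08 in JJ012 and 6.65 ± 0.09 in C28, and its second probe read 0.42 higher in JJ012 on the log2 scale, also not called. ASCL2, a transcription factor of trophoblast and intestinal stem cells, was not detected on any array. Of the other genes within or beside the domain, 3 of 11 tested were higher and 1 was lower, among them LSP1 and NUP98, with log2 fold changes of 1.57 and 1.84. The other higher gene, SLC67A1-AS, lies within the domain and by its symbol is antisense to SLC22A18. It was detected in JJ012 alone and was at least 1.69-fold higher. For this and the neighbour counts below, 13.7% of all genes were called higher and 17.6% lower.

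At 14q32, the noncoding RNA MEG3 was detected in C28 alone. MEG3 is expressed from the maternal copy and was described as a growth-restraining RNA that acts in part through p53. It read 5.14, 5.31 and 4.66 in JJ012, against 8.08, 8.38 and 8.31 in C28, so that no JJ012 array came near the lowest C28 array. It was at least 5.91-fold lower in JJ012 (log2 fold change −3.22, SE 0.18, adjusted p = 2.76e-06). A second MEG3 probe was detected on no JJ012 array and on 1 C28 array and did not count as measured. DLK1, a membrane protein related to NOTCH ligands and expressed from the paternal copy of the same cluster, was not detected on any array by either of its 2 probes. DIO3, an enzyme that inactivates thyroid hormone, was detected on no JJ012 array and on 1 C28 array. Of 12 other genes tested within or beside the cluster, 1 was called, the kinase gene MOK (log2 fold change 2.03), and the median of the 12 was −0.04. Among the 12, the microRNA genes MIR300 (0.01) and MIR1185-1 (0.13) lie within the cluster. MEG8, a gene of this cluster counted with the further imprinted genes below, was not called (0.01). It was detected on 1 JJ012 array and every C28 array.

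On chromosome 19, PEG3 was likewise detected in C28 alone. PEG3 encodes a large zinc finger protein and is expressed from the paternal copy. It read 5.45, 5.21 and 4.99 in JJ012, against 8.14, 8.5 and 8.27 in C28, and was at least 6.09-fold lower in JJ012 (log2 fold change −3.09, SE 0.15, adjusted p = 1.64e-06). ZIM2, which shares its first exons with PEG3, was not detected on any array by its single probe. Among the 10 neighbours tested, 3 were lower in JJ012 and 1 was higher, and the zinc finger genes ZNF471 (at least 2.67-fold lower) and ZNF583 (log2 fold change 1.45) were among them. ZNF331, a zinc finger gene of a separate imprinted domain on the same arm, read 7.55, 7.11 and 7.43 in JJ012, against 8.11, 8.21 and 8.08 in C28. Its values did not overlap, but the log2 fold change of −0.77 (SE 0.13, adjusted p = 0.000852) missed the fold threshold. A dimmer ZNF331 probe, for another transcript, was detected on no JJ012 array and on every C28 array and was at least 1.27-fold lower in JJ012, while 29.8% of all 19384 measured probes were called. Next to ZNF331, the calcium channel subunit gene CACNG6 was lower in JJ012 (log2 fold change −3.32), as was ZNF525 (at least 1.33-fold lower), with 3 of 10 neighbours lower and none higher. CACNG6 was detected on only 1 JJ012 array.

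At 7q21, PEG10 and SGCE, which are transcribed in opposite directions from 1 shared paternal promoter, were both lower in JJ012. PEG10 derives from a retrotransposon and is needed for the placenta in mice. It read 4.98, 4.72 and 4.76 in JJ012, against 7.67, 7.6 and 7.84 in C28, and was at least 4.03-fold lower in JJ012 (log2 fold change −2.88, SE 0.11, adjusted p = 6.91e-07). SGCE encodes epsilon-sarcoglycan, a membrane protein whose loss of function causes myoclonus-dystonia. It read 7.78, 5.1 and 6.06 in JJ012, against 10.74, 10.82 and 10.95 in C28 (log2 fold change −4.52, SE 0.57, adjusted p = 0.000191). JJ012 replicate 1 was the highest and JJ012 replicate 2, which did not detect SGCE, the lowest of the JJ012 arrays. As a percent of the C28 mean, with the offset of the normalization taken off, SGCE read 11.2%, 1.01% and 2.79% on JJ012 replicates 1, 2 and 3. These percents lie near the medians of 11%, 0.751% and 2.62% given above, which include this probe. Those 79 probes were picked as undetected on replicate 2, which fixes its low value. The part of signal like that of C28 on JJ012 replicates 1 and 3 in the JJ012 values of SGCE, PLAGL1, TFPI2 or any other gene was not tested. The log2 fold change of SGCE was −5.27 without JJ012 replicate 1 and −3.91 without JJ012 replicate 2.

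CASD1, a gene for the enzyme that acetylates sialic acid, lies beside SGCE and was not called, with 6.07 ± 0.12 in JJ012 and 5.73 ± 0.14 in C28. PPP1R9A, which encodes the actin-binding protein neurabin, was detected on no array, although its probe averaged 4.53 ± 0.05 in JJ012 and 5.39 ± 0.07 in C28. DLX5, a homeobox gene of bone and cartilage development, was also not detected on any array. Of 14 neighbours tested, 3 were higher and 1 lower, with PDK4, a kinase that restrains glucose oxidation, at least 4.15-fold higher in JJ012 and the collagen gene COL1A2 lower (log2 fold change −2.12). The median of the neighbours was 0.37, but the sides differed. Of the 5 neighbours before the cluster 4 had log2 fold changes below 0, with a median of −0.53, while all 9 within and after it had values above 0. TFPI2, which also lies at 7q21, is counted with the further imprinted genes below.

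At 7q32, MEST was lower in JJ012 and its neighbour COPG2 was not called. MEST, a paternally expressed gene for a protein of the alpha/beta hydrolase fold, read 4.72, 4.59 and 4.58 in JJ012, against 7.03, 7.34 and 7.54 in C28. No JJ012 array detected it, and it was at least 3.06-fold lower in JJ012 (log2 fold change −2.68, SE 0.14, adjusted p = 2.22e-06). The 2 further MEST probes, annotated to other transcripts, were not detected in either line. COPG2, a coat protein subunit of transport vesicles, averaged 6.96 ± 0.31 in JJ012 and 7.15 ± 0.23 in C28, and its values overlapped. At 6q24, PLAGL1, a zinc finger transcription factor linked to transient neonatal diabetes, read 5.73, 4.86 and 4.76 in JJ012, against 6.77, 7.02 and 7.33 in C28 (log2 fold change −1.92, SE 0.26, adjusted p = 0.000301). JJ012 replicate 1 alone of the JJ012 arrays detected this probe, at 31.7% of the C28 mean, and without it PLAGL1 was at least 2.57-fold lower. A second PLAGL1 probe was detected on no JJ012 array and on every C28 array and was at least 1.68-fold lower in JJ012. None of the 10 neighbours of PLAGL1 tested was called by limma, and their median was 0.29. At limma's unadjusted p under 0.05 alone, 5 were higher and 2 lower, and the share of all genes under that p was not counted. Of 10 neighbours of MEST and COPG2, 1 was called, PODXL (log2 fold change 1.39).

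The cluster at 15q11-q13, whose paternal copy is lost in Prader-Willi syndrome, held genes that went opposite ways. MKRN3, a makorin zinc finger gene linked to the timing of puberty, read 7.45, 7.47 and 7.51 in JJ012, against 4.58, 4.48 and 4.58 in C28. All JJ012 arrays and no C28 array detected it, and it was at least 3.99-fold higher in JJ012 (log2 fold change 2.93, SE 0.09, adjusted p = 2.05e-07). A second MKRN3 probe read 6.3, 5.65 and 6.2 in JJ012, against 4.77, 4.53 and 4.45 in C28, but was detected on only 2 JJ012 arrays and did not count as measured. SNRPN encodes SmN, a core protein of splicing particles, and SNURF is the upstream reading frame of the same transcript. SNRPN read 9.53, 9.5 and 9.31 in JJ012, against 11.32, 11.23 and 11.19 in C28 (log2 fold change −1.8, SE 0.1, adjusted p = 3.02e-06). SNURF read 9.21, 9.06 and 9.24 in JJ012, against 10.49, 10.57 and 10.44 in C28 (log2 fold change −1.33, SE 0.1, adjusted p = 9.23e-06). Both were detected on all 6 arrays, and neither overlapped between the lines. Since 1 transcript carries both frames, their probes may read the same RNA and are not independent measurements.

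All 3 measured SNRPN probes were lower in JJ012, with log2 fold changes of −1.8, −1.69 and −1.11. A further SNRPN probe was detected on no array, and a second SNURF probe was detected on no JJ012 array and on 2 C28 arrays and did not count as measured. JJ012 replicates 1, 2 and 3 read 30.0%, 29.3% and 25.6% of the C28 mean of SNRPN, so the difference was of like size on each array. NDN, a paternally expressed gene for a protein that restrains growth of neurons, was detected on no array, with 4.56 ± 0.09 in JJ012 and 5.26 ± 0.05 in C28. UBE3A, the ubiquitin ligase gene of Angelman syndrome, which is imprinted in neurons only, averaged 10.04 ± 0.13 in JJ012 and 10.13 ± 0.08 in C28 and overlapped between lines. A second measured UBE3A probe had a log2 fold change of 0.07. ATP10A, a lipid flippase, averaged 7.08 ± 0.18 in JJ012 and 7.24 ± 0.24 in C28 and was not called. Among 11 neighbours tested, 1 was higher and 2 were lower. SNORD109B, a small nucleolar RNA gene that lies between SNURF and UBE3A, was detected on no JJ012 array and was at least 2.22-fold lower. GOLGA8IP, a pseudogene at the start of the region whose signal may come from near-identical copies, was higher in JJ012 (log2 fold change 1.73) and was detected on 1 C28 array. ENTREP2, named after its values were seen, was the other lower neighbour, detected on no JJ012 array and at least 2.08-fold lower.

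**Figure D3:**
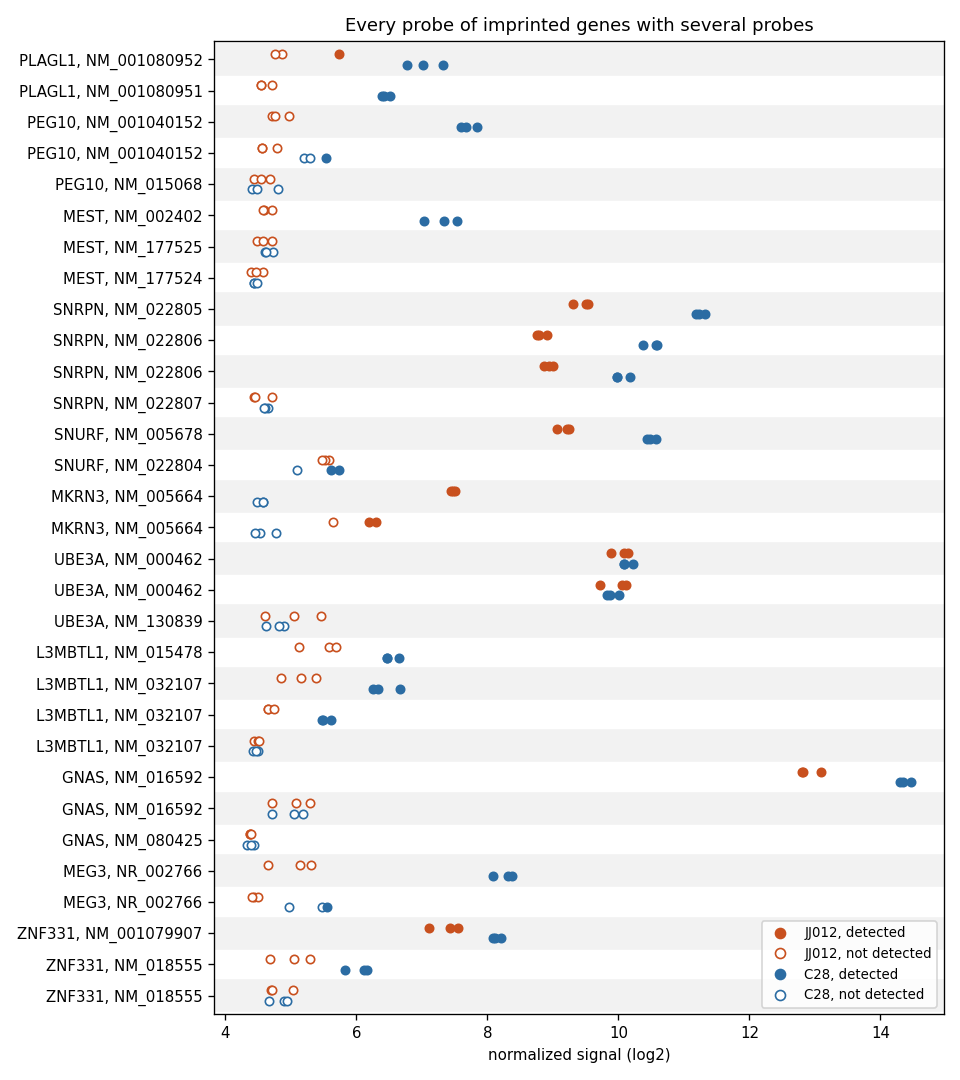
Normalized signal (log2, horizontal axis) of every probe of PLAGL1, PEG10, MEST, SNRPN, SNURF, MKRN3, UBE3A, L3MBTL1, GNAS, MEG3 and ZNF331. Labels give the transcript each probe is annotated to, with JJ012 in orange above C28 in blue and open points where an array did not detect the probe. The 3 bright SNRPN probes and the brighter SNURF probe are all lower in JJ012, both MKRN3 probes read higher in JJ012, and for PEG10 and MEST 1 of 3 probes was measured.

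On chromosome 20, L3MBTL1 and GNAS were lower in JJ012, and so were many of the genes around them. L3MBTL1, a paternally expressed gene for a protein that compacts chromatin, read 5.58, 5.69 and 5.13 in JJ012, against 6.65, 6.47 and 6.47 in C28. No JJ012 array detected it, and it was at least 1.79-fold lower there (log2 fold change −1.06, SE 0.15, adjusted p = 0.00041). Its second measured probe was at least 1.65-fold lower. L3MBTL1 fell short of the 2-fold threshold without JJ012 replicate 3 (−0.9) and without C28 replicate 1 (−0.98). GNAS encodes the stimulatory G protein alpha subunit, which is made from both copies in most tissues, and further imprinted transcripts. It read 13.09, 12.8 and 12.81 in JJ012, against 14.34, 14.46 and 14.29 in C28 (log2 fold change −1.46, SE 0.11, adjusted p = 1.28e-05). The 2 other GNAS probes were detected on no array, 1 of them annotated to the same transcript as the bright probe, so which GNAS transcripts differed was not resolved. At 20q13.1, 4 of the 10 neighbours of L3MBTL1 were lower and none was higher, with a median log2 fold change of −0.86, among them TOX2 (−4.09) and IFT52 (−1.93). On JJ012 replicates 1, 2 and 3, TOX2 read 8.94, 7.08 and 7.62. At 20q13.3, 5 of the 10 neighbours of GNAS were lower and none was higher, with a median of −0.97, among them the protease gene CTSZ (−4.63) and the meiosis gene SYCP2 (at least 1.57-fold lower, detected on no JJ012 array). CTSZ read 5.74, 4.44 and 4.69 on JJ012 replicates 1, 2 and 3 and was detected on only 1 of them. Over all genes, 13.7% were called higher and 17.6% lower. By limma's unadjusted p under 0.05 alone, 9 neighbours at 20q13.1 and 8 at 20q13.3 were lower, and none was higher. The share of all genes under that p was not counted, so these 2 counts have no background beside them.

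BLCAP, a gene first described in bladder cancer that lies at 20q11, read 9.17, 8.85 and 9.07 in JJ012, against 9.69, 9.51 and 9.37 in C28, and its log2 fold change of −0.49 (SE 0.12, adjusted p = 0.00783) missed the fold threshold. NNAT, a paternally expressed gene inside an intron of BLCAP, was detected on no array by either of its 2 probes. Of 10 neighbours of this pair, 2 were lower and none was higher, namely the kinase gene SRC (log2 fold change −1.73) and TGM2 (−4.42), a transglutaminase. TGM2 was detected on 2 JJ012 arrays, and its log2 fold change was −5.14 without JJ012 replicate 1 and −3.78 without JJ012 replicate 2. Copy number was not measured in these samples. Over the 15 clusters, the neighbours came to 148 distinct tested genes, of which 13 were higher and 24 lower, with a median of −0.06. Some of them lie within a cluster, and whether they are imprinted was not checked. Of all genes tested, 13.7% were higher and 17.6% lower, with a median of −0.04.

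**Figure D4:**
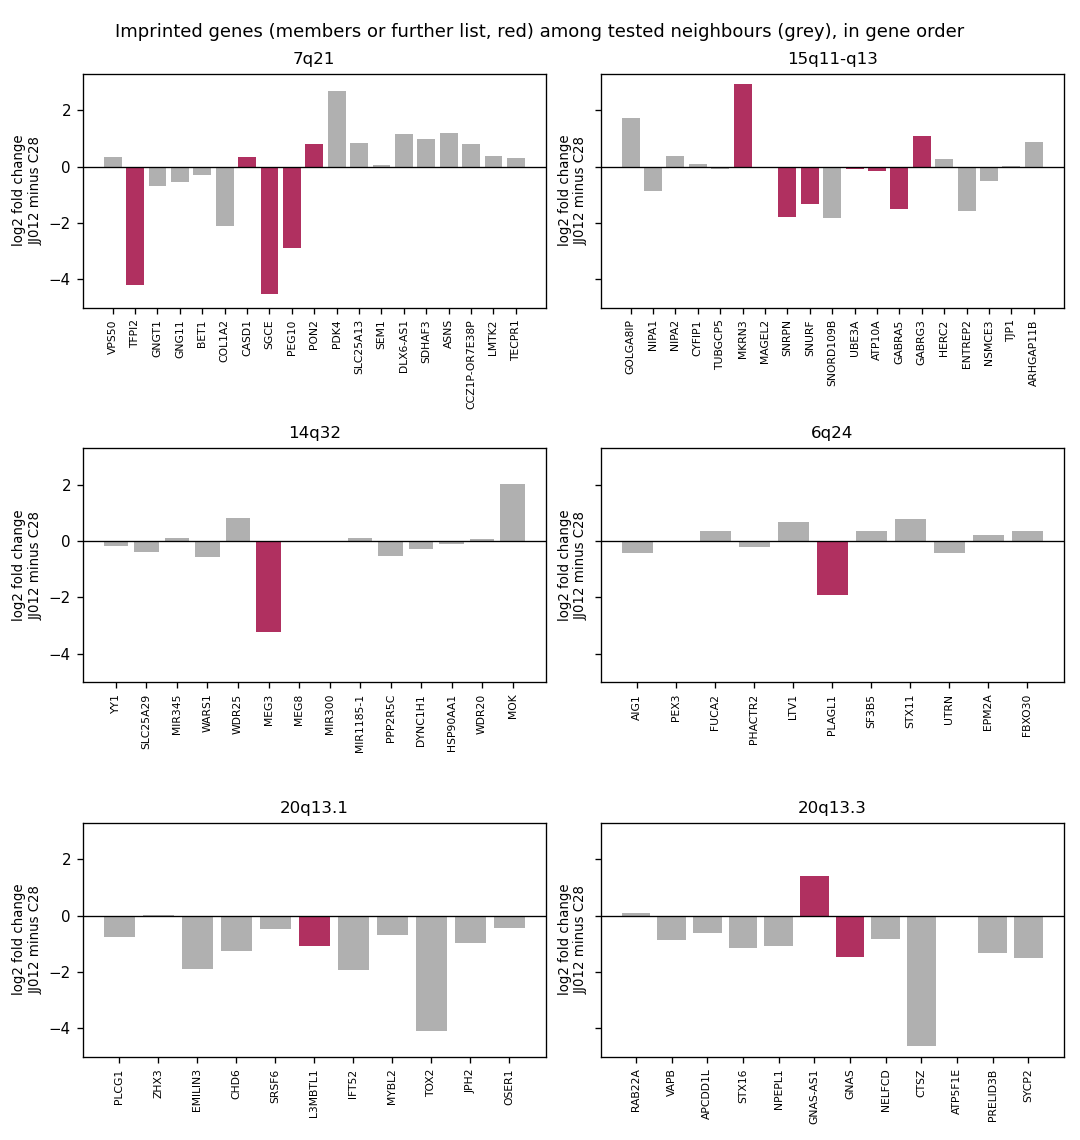
Log2 fold change (JJ012 minus C28, vertical axis) of the tested genes in and beside 6 imprinted clusters in chromosomal order, with the imprinted genes and the further listed imprinted genes in red and the other neighbours in grey. Grey bars are genes on neither list, some of them within a cluster, and whether they are imprinted was not checked. MEG3 and PLAGL1 stand below mostly small grey bars, whereas at 20q13.1 and 20q13.3 most grey bars also lie below 0.

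The remaining clusters held 1 gene each. DIRAS3, at 1p31, is a paternally expressed Ras-related gene that restrains growth, and it was detected on no JJ012 array and on 2 C28 arrays by its brighter probe, which read 4.72, 4.77 and 4.77 in JJ012, against 5.77, 5.4 and 6.17 in C28. It did not count as measured. NAP1L5, at 4q22, is a paternally expressed gene of the nucleosome assembly protein family, and it read 7.77, 7.84 and 8.01 in JJ012, against 7.03, 7.01 and 7.12 in C28. The lines did not overlap, but its log2 fold change of 0.82 (SE 0.1, adjusted p = 0.000146) missed the fold threshold. It was the only measured paternally expressed gene besides MKRN3 with a positive log2 fold change. INPP5F, at 10q26, encodes an inositol phosphatase and averaged 6.8 ± 0.14 in JJ012 and 6.54 ± 0.12 in C28, with overlapping arrays. Beside these clusters, IL23R was at least 4.52-fold higher in JJ012 and ANKRD13C had a log2 fold change of 1.06 at 1p31. At 4q22 the interferon-induced genes HERC5 (−4.04) and HERC6 (−2.22) were lower, and at 10q26 PLPP4 was lower (−3.68). Of the JJ012 arrays, 2 detected HERC5, 1 detected HERC6 and 1 detected PLPP4. On JJ012 replicates 1, 2 and 3, PLPP4 read 6.27, 4.76 and 5.41. HERC5 had −4.67 without JJ012 replicate 1 and −3.44 without JJ012 replicate 2.

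The signal on each JJ012 array as a percent of the C28 mean varied among the 11 genes called lower, and detected and undetected genes overlapped in it. SNRPN, SNURF and GNAS were detected on all JJ012 arrays and read 25.6% to 41.2% of the C28 mean. PEG3, PEG10, MEG3 and MEST read 3.18% to 9.17% on every JJ012 array, all without detection. For SGCE and PLAGL1, JJ012 replicate 1 read at least 2 times the percent of the other JJ012 arrays, whereas GNAS differed less, with 41.2%, 33.7% and 34.0%. CDKN1C and L3MBTL1 read 25.0% to 46.6% without detection. For a probe that was not detected, this percent cannot be told apart from background.

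**Figure D5:**
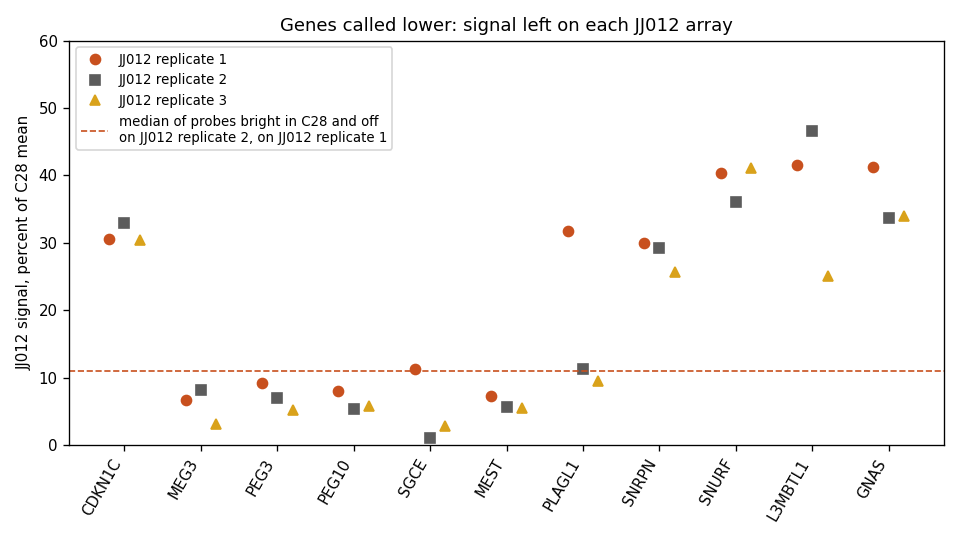
Signal on each JJ012 array as a percent of the C28 mean (vertical axis, offset taken off) for the 11 imprinted genes called lower, with 1 symbol per JJ012 replicate and a dashed line at 11%, the median on JJ012 replicate 1 of the 79 C28-bright probes. SGCE lies at the line for replicate 1 and near 1.01% for replicate 2, while SNRPN, SNURF and GNAS lie between 25.6% and 41.2% on all replicates.

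A further list of 55 imprinted genes, which with the 35 above covers most well-studied human clusters, was read from the same fit. Of these, 50 had a probe and 25 were tested, and 4 were higher, 5 lower and 16 not called, against 31.3% of all genes called (13.7% higher and 17.6% lower), with a median log2 fold change of 0.01. FAM50B, which is expressed from the paternal copy, was detected in JJ012 alone and was at least 2.52-fold higher. ZNF597, a maternally expressed zinc finger gene, read 7.69, 7.45 and 7.64 in JJ012, against 5.9, 5.79 and 5.94 in C28 (log2 fold change 1.72, SE 0.1, adjusted p = 4.28e-06). GNAS-AS1, the antisense RNA of the GNAS locus, was at least 1.96-fold higher in JJ012, opposite in direction to GNAS (probe strand was not checked), and GABRG3, a receptor subunit gene of the 15q11-q13 cluster, was at least 1.87-fold higher. Among the genes lower in JJ012, TFPI2, a protease inhibitor gene at 7q21, differed by −4.2 on the log2 scale (SE 0.47, adjusted p = 9.71e-05), and by −4.86 without JJ012 replicate 1, the only JJ012 array that detected it. GRB10, an adaptor that restrains insulin and IGF receptor signalling, read 5.46, 5.49 and 4.8 in JJ012, against 7.46, 7.49 and 7.49 in C28, and was at least 3.45-fold lower. GABRA5 was at least 1.82-fold lower, and TRAPPC9, detected on 1 JJ012 array, had a log2 fold change of −1.43. IGF2, the growth factor gene expressed from the paternal copy beside H19, was detected on no JJ012 array and on every C28 array, and was at least 1.11-fold lower in JJ012 (log2 fold change −1.37, SE 0.12, adjusted p = 2.49e-05). H19 and IGF2 thus had log2 fold changes of opposite sign, each with a bound under 2-fold. With the authors' normalized values both missed the 2-fold threshold (0.89 for H19 and −0.81 for IGF2).

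A list of factors that keep imprints through cell division or set DNA methylation was mostly not called among the genes tested. Of 12 such genes, 7 were tested, 1 was called higher and none lower, against 13.7% and 17.6% of all genes. ZFP57, ZNF445, DNMT3A, DNMT3L and DPPA3 were not among the tested genes, although all 12 had a probe. At an unadjusted p under 0.05 by limma with no fold threshold, 4 were higher and 3 lower. The adjusted p of all 7 was also below 0.05. The shares of all genes under these p-values alone were not counted. DNMT3B, a methyltransferase that sets new DNA methylation, read 9.08, 9.05 and 8.98 in JJ012, against 7.55, 7.53 and 7.11 in C28 (log2 fold change 1.64, SE 0.13, adjusted p = 1.73e-05). The other 6 had absolute log2 fold changes below the 2-fold threshold. SMCHD1 (0.52), TRIM28 (0.4) and DNMT1 (0.38) had positive values, and UHRF1 (−0.64), CTCF (−0.44) and SETDB1 (−0.3) negative ones.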

How the data were processed

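Per the file headers, the authors deposited a mean intensity on a linear scale for 47231 probes per array, with no background subtraction apparent, and a fraction per probe headed as a detection p-value, which reads 1 for bright probes and was taken as 1 minus p. A second deposited table holds the authors' log2 values, centred per probe on the median of the 6 arrays (array medians −0.003, 0.004 and 0.003 in JJ012, −0.001, −0.001 and 0 in C28). Its scale and direction were read from its correlation with the differences of the intensities (0.991 over 15285 probes), and its normalization between arrays stays unknown. It served as an alternative.

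The neqc function (limma 3.58.1, R 4.3.3) corrected the background and normalized the intensities by quantiles (offset 16, negative controls inferred from the detection values). Probes with a detection value above 0.99 on all 3 arrays of a line were kept, 19384 in all. Of all probes, 30113 had 1 gene symbol, 8 had several and 17110 had none, and 30074 matched the RefSeq gene table. JJ012 and C28 were compared with lmFit and eBayes, with Benjamini-Hochberg adjustment over 11515 genes, or over the 19384 probes for values of further probes. The fit was tested on simulated data. Neighbours were the 5 nearest tested genes on either side of a cluster, and those within it, by order in the RefSeq table of GRCh38.p14, with the further imprinted genes left out. Genes on neither list, such as SNORD109B, MIR300, MIR1185-1 and SLC67A1-AS within clusters, were kept without a check of whether they are imprinted. The neighbours are therefore no set of genes free of imprinting. All 35 members were named. Of the further imprinted genes and the imprint-keeping factors, those with the 4 largest changes in either direction and IGF2 were named, and of the neighbours those with the 2 largest changes per cluster. MEG8, MIR300, MIR1185-1 and SLC67A1-AS, like ENTREP2, were named after their values were seen. Members and lists were chosen with earlier results of these data known. Replicate numbers were not taken as pairs in the main fit, as the labels state no pairing. Same-numbered JJ012 and C28 arrays deviated together with correlations of −0.038, −0.073 and 0.065. With 3 arrays per line, these correlations cannot show whether the arrays were paired. The number of arrays, 3 per line, limits the precision.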

Additional observations from a re-analysis of the deposited data

How the results depend on the processing

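Over 17 alternative settings, single imprinted genes gave 415 values. Of these, 391 kept call and direction, 22 lost a call, 2 gained one and none reversed. Of 25 genes, 19 were the same throughout. Part of this tally was fixed in advance. Dropping the filter, requiring detection on all 6 arrays and the replicate block left the log2 fold change of a tested gene unchanged. So did the mean of probes for a gene with 1 measured probe. Genes never called also count as kept, so the tally is no measure of stability. COPG2 and UBE3A, not called, changed sign in 1 setting each. The 3 imprinted genes higher in JJ012 became 1 with the authors' values, with normexp without negative controls, without background correction and with detection required on all 6 arrays, and the 11 lower became 3 in the last of these. Detection on all 6 arrays left only 15 of the 25 imprinted genes in the test. The calls lost there belong to genes left out, not to values that fell below the threshold. This also holds for its counts of further imprinted genes and neighbours below. In the first 3 of these 4 settings H19 had log2 fold changes of 0.89, 0.96 and 0.77 and CDKN1C of −0.56, −0.59 and −0.49. IGF2 had −0.81, −0.88 and −0.69 there, and the cause of these shifts was not tested. L3MBTL1 lost its call in 6 settings, TSSC4 in 9, and PLAGL1 without background correction (−0.93), while ZNF331 was called with median scaling (−1.01) and when JJ012 replicate 2 alone stood for JJ012 (−1.02), its spread then assumed to be that of C28. The 4 further imprinted genes higher became 2, 2, 0 and 1 in the same 4 settings, and the 5 lower became 2, 2, 2 and 0. The 13 neighbours higher became 8 with the authors' values, 8 without background correction and 7 with detection on all 6 arrays, and the 24 lower became 15, 12 and 9. Over all genes, 1574 were higher and 2025 lower, and without background correction 973 and 1279. Median scaling moved the share of lower calls from 56.3% to 67.0% and the median of all genes from −0.04 to −0.23. With the replicate block 1574 were higher and 2025 lower, and it changed no call of an imprinted gene. As the design is balanced, that block leaves every log2 fold change as it was and could move a call only through the adjusted p. Counts of imprinted genes stayed within 1.5 times when any single array was left out. The slide as a block was not run, because the headers name no slides.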
